A study of Mus musculus with 6 samples.

Results

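Accessible chromatin around 4 neural transcription factor genes was described in R1 mouse embryonic stem cells that had been differentiated with retinoic acid to day 6. The members are the deposited accessible regions that overlap fixed windows named for Sox2 (chr3:34250000-34850000), Pax6 (chr2:105200000-105850000), Olig2 (chr16:90900000-91550000) and Isl1 (chr13:116800000-117400000), in the mouse build mm9. These windows held 666 of the 495233 regions in the set (0.134%), with 211 in the Sox2, 161 in the Pax6, 220 in the Olig2 and 74 in the Isl1 window. R1 cells, an established embryonic stem cell line, were aggregated into embryoid bodies in hanging drops for 48 h and then kept in medium with retinoic acid, at a dose the labels write as 0.5 mM. Accessible DNA was mapped in 3 samples by ATAC-seq, a method that uses a transposase to cut open chromatin, and polyadenylated RNA was sequenced in 3 others. All 6 samples share the cell line, the treatment and the day, with no untreated or earlier group, so the values are levels and not changes. Whether the replicates were separate cultures is not stated, and their spread may be technical.

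The ATAC-seq samples share a joint region list with a start, an end and a score for each region. The score is the authors' own value and its scale is not stated in the labels or the file, so it is used to rank regions within this list. No per-sample values accompany the regions. Differences between windows therefore carry no replicate error and no test, and they are given as a description. Gene positions in mm9 were not used here, so positions within a window are given as distance from its midpoint, negative toward lower coordinates. Whether a region lies on a promoter, an exon or an intron was not determined.

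The genes behind the windows act in successive steps of spinal cord development. Sox2 encodes a SoxB1 factor that keeps neural progenitors, and also embryonic stem cells, in an undifferentiated state. Pax6 encodes a paired-box and homeodomain factor that patterns progenitors along the dorsoventral axis, and it also acts in eye, forebrain and pancreas. Olig2 encodes a basic helix-loop-helix factor of motor neuron progenitors and later of oligodendrocytes, and Isl1 a LIM homeodomain factor of newborn motor neurons and of heart progenitors. Such developmental genes are known for enhancers spread over long stretches of flanking DNA, and an accessible region can be a promoter, an enhancer or another bound element.

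The promoters of these genes are shown because the windows are named for these genes. Where they lie within the windows was not determined. All 4 symbols matched RefSeq's promoter sequences, and Pax6 had a pair of start sites. Each line holds the 250 bases upstream of the annotated start, from the build GRCm38.p6, whose coordinates cannot be set beside those of the mm9 regions. Capitals mark matches, on either strand, to short motifs. Searched were AGGTCA along with the related GGTTCA (hexamers bound by retinoic acid receptors), CAGCTG along with its variant CATCTG (E-boxes), ACAAAG along with the shorter ACAAT (Sox factors), and TAATTA (homeodomain factors). The general elements searched were the TATA box (written TATAAA), the CCAAT box, and the GC box (written GGGCGG). No matches overlap one another.

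Sox2 (GRCm38.p6 chr3:34649745-34649994, plus strand): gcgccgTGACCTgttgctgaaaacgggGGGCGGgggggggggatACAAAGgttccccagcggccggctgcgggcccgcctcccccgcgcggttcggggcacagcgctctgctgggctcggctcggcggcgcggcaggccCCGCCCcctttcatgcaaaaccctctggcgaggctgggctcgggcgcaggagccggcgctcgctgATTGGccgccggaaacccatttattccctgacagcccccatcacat
Pax6 first start (GRCm38.p6 chr2:105668646-105668895, plus strand): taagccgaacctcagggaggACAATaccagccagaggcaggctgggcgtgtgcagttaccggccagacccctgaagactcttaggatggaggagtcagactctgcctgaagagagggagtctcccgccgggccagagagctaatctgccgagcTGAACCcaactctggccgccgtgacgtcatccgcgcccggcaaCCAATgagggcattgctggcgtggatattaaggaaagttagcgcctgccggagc
Pax6 other start (GRCm38.p6 chr2:105682213-105682462, plus strand): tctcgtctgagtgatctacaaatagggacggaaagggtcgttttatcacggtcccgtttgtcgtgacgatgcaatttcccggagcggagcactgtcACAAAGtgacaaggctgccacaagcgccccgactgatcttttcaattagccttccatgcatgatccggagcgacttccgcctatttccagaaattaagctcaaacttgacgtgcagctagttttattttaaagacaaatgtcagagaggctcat
Olig2 (GRCm38.p6 chr16:91225300-91225549, plus strand): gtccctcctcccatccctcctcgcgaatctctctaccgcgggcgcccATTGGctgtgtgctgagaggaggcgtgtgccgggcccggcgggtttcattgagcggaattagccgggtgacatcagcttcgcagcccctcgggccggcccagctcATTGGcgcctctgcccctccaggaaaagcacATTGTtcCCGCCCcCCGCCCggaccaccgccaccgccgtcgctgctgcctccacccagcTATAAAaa
Isl1 (GRCm38.p6 chr13:116309689-116309938, minus strand): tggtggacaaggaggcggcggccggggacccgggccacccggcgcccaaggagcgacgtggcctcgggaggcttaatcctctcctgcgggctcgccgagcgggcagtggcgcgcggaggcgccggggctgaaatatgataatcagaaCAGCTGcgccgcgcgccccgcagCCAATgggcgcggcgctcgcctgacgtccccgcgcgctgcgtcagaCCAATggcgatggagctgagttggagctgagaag

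These promoters were rich in G and C for the most part. GC made up 72% of the Sox2, 66.8% of the Olig2 and 71.2% of the Isl1 sequence, against a median of 52.4% over 32851 RefSeq promoters cut to the same length. The Pax6 sequences held 60.8% and 47.6% GC. CpG dinucleotides numbered 27 in Sox2, 22 in Olig2, 33 in Isl1 and 15 in each Pax6 sequence, against a median of 6. CCAAT was found in Sox2, the first Pax6 start, Olig2 and Isl1, and in 33.8% of all promoters. AGGTCA was found in Sox2 only (14.0% of all promoters) and GGTTCA in the first Pax6 start only (8.85%). The GC box was found in Sox2 and Olig2 (32.7%), ACAAAG in Sox2 and the other Pax6 start (16.5%), and ACAAT in the first Pax6 start and Olig2 (27.7%). CAGCTG was found in Isl1 only (13.0%), TATAAA in Olig2 only (12.4%), and CATCTG (14.4%) and TAATTA (4.84%) in none of them. The TATAAA match lay at -8 to -3 from the annotated start, and whether it acts as a TATA box was not tested. A match is a description of the letters and not a bound site.

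All 4 genes were expressed, in an order with no overlap between their replicates. The RNA-seq values were read as FPKM, which scales by transcript length and so lets genes be compared. Sox2 stood at 84.8, 76.7 and 77.1 FPKM in replicates 1 to 3, a mean of 79.5 ± 4.57 (SD, n = 3). Olig2 stood at 32.5, 34.8 and 33.3 (33.5 ± 1.18). Isl1 stood at 17.4, 18.2 and 17.3 (17.6 ± 0.452). Pax6 was lowest, at 11.8, 11.8 and 10.8 (11.5 ± 0.562). In each replicate Sox2 was highest and Pax6 lowest, and neighbours in this order were separated by more than their spread between replicates. That spread does not measure error between genes, such as how reads were assigned to them.

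The windows differed widely in how densely they were filled. Sox2 held 35.2 regions per 100 kb, Olig2 33.8, Pax6 24.8 and Isl1 12.3, while all chromosomes together held 19.2. The Sox2 and Olig2 windows were thus 1.83 and 1.76 times as dense as all chromosomes, Pax6 1.29 times and Isl1 0.643 times. Set against its own chromosome, each window kept its side, with ratios of 1.93, 1.70, 1.13 and 0.589 for Sox2, Olig2, Pax6 and Isl1. Regions covered 18.3% of the Olig2, 17.1% of the Sox2, 13.1% of the Pax6 and 5.24% of the Isl1 window, against 9.31% of all chromosomes.

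Stretches of equal length elsewhere give a scale for these counts. Of 4392 consecutive stretches of 600 kb over all chromosomes, 92.8% held fewer regions than the Sox2 window and 33.7% fewer than the Isl1 window. Of 4054 stretches of 650 kb, 90.3% held fewer than the Olig2 window and 63.8% fewer than the Pax6 window. Counted from the start of each chromosome, 178 of the 600 kb and 154 of the 650 kb stretches held no region. The sparse chromosome X was included, and such stretches raise these percentages. By the number of regions with a score at or above the 90th percentile of the list, the order was different. Olig2 then exceeded 90.6% of stretches, Pax6 80.3%, Sox2 67.0% and Isl1 38.8%. The Sox2 window thus ranked lower by high-scoring regions than by all regions.

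Most members were weak and narrow, as in the whole set. Their median score was 5.49 against 5.24 for all regions, and the medians per window were 5.36 in Sox2, 5.35 in Pax6, 5.72 in Olig2 and 5.20 in Isl1. Scores of members ran from 3.63 to 301, where the whole set ran from 3.62 to 3886. Median width was 344 bases in the members and 332 in all regions, with 299.5 in the Isl1 window and 352 in the Sox2 window. In Olig2 the 95% interval of the median score, from order statistics, was 5.45 to 6.27, above the median of all regions, and 40.5% of its regions scored below that median. The intervals of the other windows included 5.24. These intervals treat neighbouring regions of the joint list as independent. They carry no replicate error and are no test between windows.

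A region is called strong here where its score reached the 90th percentile of all regions, 17.5, which 10.0% of all regions did. Strong regions numbered 70 of 666 members (10.5%), a share near that background. By window they numbered 21 of 161 in Pax6 (13.0%, exact Clopper-Pearson interval 8.26 to 19.2%), 27 of 220 in Olig2 (12.3%, 8.25 to 17.4%), 7 of 74 in Isl1 (9.46%, 3.89 to 18.5%) and 15 of 211 in Sox2 (7.11%, 4.03 to 11.5%). Every interval, which covers counting error only, included 10.0%. With scores divided by width before ranking, Olig2 fell to 9.09% and Isl1 rose to 13.5%, so these windows changed sides of 10.0%.

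The strongest tier, scores at or above the 99th percentile (151), held 1.00% of all regions and 9 of the 666 members (1.35%). Olig2 had 5 of these, Pax6 3, Isl1 1 and Sox2 none. Of these 9, 8 lay more than 170 kb from the midpoint of their window, the nearest of them at 174 kb, and the remaining region was the central one of Isl1. The limit of 170 kb was not set in advance. Regions that were not strong had a median distance of 159 kb in Pax6 and 171 kb in Olig2, so distances near that limit were ordinary there. The highest score of the Olig2 and Pax6 windows lay far from the centre, and that of the Isl1 window at the centre.

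**Figure D1:**
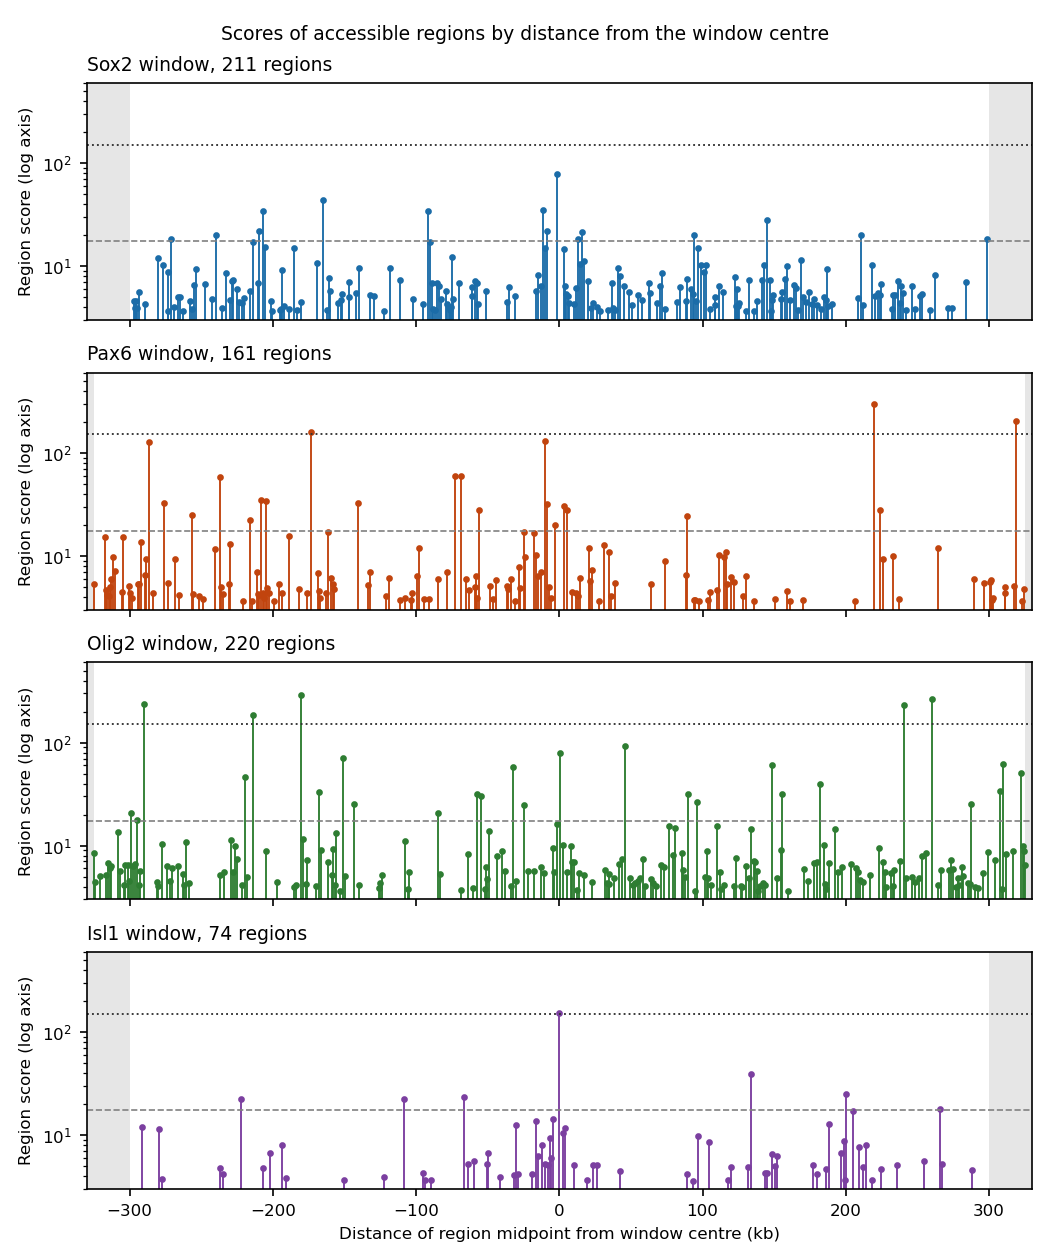
Score of each region (vertical log axis) by the distance of its midpoint from the window midpoint in kb, 1 panel per window. Dashed and dotted lines mark the 90th (17.5) and 99th (151) percentile of all regions and grey marks DNA outside the window. The highest point is central in the Sox2 and Isl1 panels and lies 220 kb and -181 kb from the centre in the Pax6 and Olig2 panels.

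**Figure D2:**
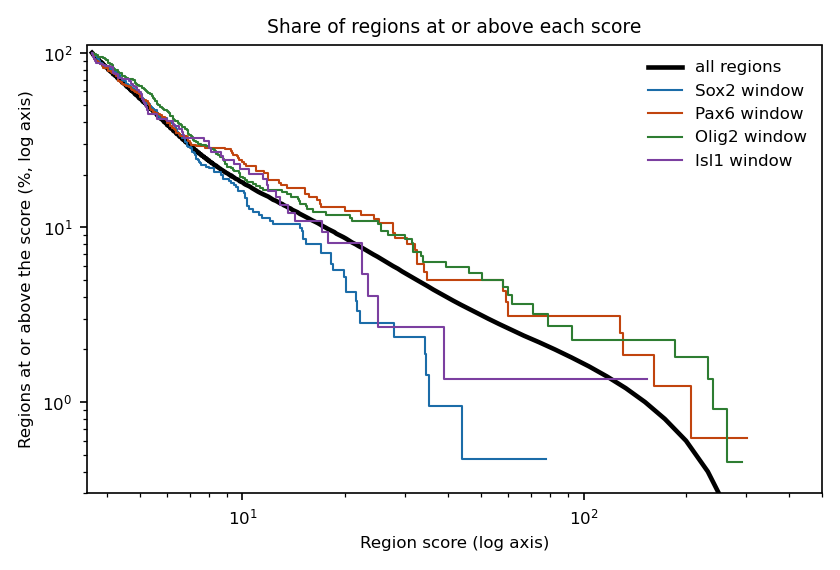
Percentage of regions (vertical log axis) at or above each score (horizontal log axis) for all 495233 regions (black) and for each window (colours). The lines run together at low scores, and at high scores the Sox2 line ends first, at 77.7, while the Olig2 and Pax6 lines reach 291 and 301.

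In the Sox2 window the region over the midpoint, chr3:34546656-34550349, had both the highest score (77.7) and the greatest width (3694 bases). It ranked 536th on chromosome 3 and 10448th of all regions (percentile 97.9). The next scores were 44.0 at chr3:34384378-34385877, at -165 kb, and 35.2 at chr3:34537954-34538722, at -11.7 kb. Regions at chr3:34342624-34343501 (34.6) and chr3:34457696-34458501 (34.2) followed, at -207 and -91.9 kb. All 5 of the highest lay at or below the midpoint, and none reached the 99th percentile.

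Strong regions of the Sox2 window formed a small group at its centre and were otherwise spread out. Within the central 50 kb, 5 of 21 regions (23.8%) were strong, and outside it 10 of 190 (5.26%), against 10.0% of all regions. None of the 13 regions in the next 25 kb on either side was strong. Over the whole window strong regions lay about as far from the midpoint as the others, with a median distance of 145 kb against 148 kb. Regions lay close together in this window, with a median gap of 1497 bases and a largest gap of 17991 bases. Its other wide regions were modest in score, with 1679 bases at chr3:34295311-34296989 scoring 9.29 and 1577 bases at chr3:34363851-34365427 scoring 15.1. The lowest score was 3.63, at chr3:34287478-34287671.

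The Pax6 window had its highest scores on both sides of the midpoint. The region at chr2:105743954-105745429 scored 301, the highest of all members, and ranked 43rd on chromosome 2 and 684th of all regions. It lay 220 kb from the midpoint. Next came 206 at chr2:105842982-105844043, 319 kb from the midpoint and near the window's edge, and 161 at chr2:105350614-105352208, 174 kb toward lower coordinates. The fourth, chr2:105513778-105515954, scored 130 and lay 10.1 kb from the midpoint. The fifth scored 128 at chr2:105237507-105240115, at -286 kb and 2609 bases wide. Apart from the fourth, these regions were all far from the centre.

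Around its centre the Pax6 window had the only run of 5 or more strong regions with gaps of at most 5 kb among the 4 windows. Of all 49524 strong regions, 1.84% lay in such runs, which numbered 151. The run began with the region that scored 130 and went on with chr2:105516172-105517085 (32.1), chr2:105520271-105523432 (19.9), chr2:105527371-105529084 (30.4) and chr2:105529649-105530796 (28.1). The third of these was the widest region of the window, 3162 bases, and the nearest to the midpoint, its nearer end 1.57 kb away. It was only the 21st highest score, the lowest of the strong ones. In the other windows the longest such runs held 3 regions in Sox2, 3 in Olig2 and 1 in Isl1. The central 50 kb of the Pax6 window held 5 strong regions of 20 (25%), and the rest 16 of 141 (11.3%).

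The sides of the Pax6 window were unequal. The lower side held 105 regions, 15 of them strong, and the higher side 56, with 6 strong. The largest gap, 36.0 kb, ran from 170 to 206 kb above the midpoint, below the highest-scoring region. Counts on both sides were closer in the other windows, with 98 and 113 in Sox2, 93 and 127 in Olig2, and 35 and 39 in Isl1.

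The Olig2 window held the most regions and the most strong ones. Its 5 highest scores were 291 at chr16:91043564-91045415, 264 at chr16:91484664-91486236, 239 at chr16:90934338-90935741, 232 at chr16:91464645-91466004 and 186 at chr16:91010089-91012160. They lay between 181 and 290 kb from the midpoint, 3 on the lower and 2 on the higher side. The first ranked 35th on chromosome 16 and 811th of all regions. The region over the midpoint, chr16:91224947-91226213, scored 78.5 and was the 7th highest. At the midpoint the Olig2 and Sox2 windows thus had nearly equal scores, 78.5 and 77.7.

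Closer to the centre of the Olig2 window the broad regions were more prominent than the strongest ones. The sixth score, 92.3, belonged to chr16:91269519-91271711, 45.6 kb above the midpoint, which was also the second widest at 2193 bases. The widest, 2573 bases at chr16:91191521-91194093, scored 57.9 and lay 32.2 kb below it. In the central 50 kb 2 of 18 regions were strong (11.1%), against 25 of 202 elsewhere in the window (12.4%). Strong regions were spread over this window, with 14 on the lower and 13 on the higher side.

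The Isl1 window was sparse and was led by a central region. chr13:117098858-117100949, over the midpoint and 2092 bases wide, scored 154 and ranked 202nd on chromosome 13 and 4852nd of all regions. The next region ranked 20097th of all, with 39.1 at chr13:117233292-117234069, 134 kb above the midpoint. In Sox2, Pax6 and Olig2 the second region ranked 17729th, 2766th and 1257th of all.

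The other strong regions of the Isl1 window were scattered and low. After the first 2, the scores were 24.9 at chr13:117300009-117300747 and 23.3 at chr13:117032811-117034011, at 200 and -66.6 kb. A pair tied at 22.4, chr13:116877424-116878411 at -222 kb and chr13:116991477-116992177 at -108 kb, and the last scored 17.8 at chr13:117365176-117365716, at 265 kb. No further strong region lay within the central 50 kb, which held 1 strong of 15 regions, but the weaker ones were denser toward the centre. The central 100 kb, 16.7% of the length, held 22 of the 74 regions (29.7%), against 16.1% in Sox2 (34 regions), and 15.5% in Olig2 and 21.1% in Pax6 (34 regions in 15.4% of the length each). Summed over regions, which takes the scores as additive and was not verified, the central 50 kb held 36.1% of the score in Isl1, 18.1% in Sox2, 15.5% in Pax6 and 6.48% in Olig2. Those stretches made up 8.33% of the length in Isl1 and Sox2 and 7.69% in Pax6 and Olig2. The region over the midpoint alone made up 21.1% of the summed score in Isl1 and 4.78% in Sox2. In the Isl1 window the median gap was 3.79 kb, and the largest, 46.2 kb, ran from 42.7 to 88.8 kb above the midpoint. The second widest region, chr13:117103412-117104871 with 1460 bases, scored 11.8.

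Score rose with width in every window, as it did in the whole set. Spearman's rho was 0.729 over 211 regions in Sox2, 0.725 in Pax6, 0.679 in Olig2, 0.800 in Isl1 and 0.728 over all regions, given as a description across regions that share their libraries. Regions of at least 1000 bases made up 8.68% of all regions and 63 of the 666 members (9.46%), with 19 in Sox2, 17 in Pax6, 24 in Olig2 and 3 in Isl1. Among the 70 strong members 34 were that wide (48.6%), and among all strong regions 47.4%. Strong members had a median width of 987 bases and the others 331. Only the central region of Sox2 and the wide region of the Pax6 run reached 3000 bases, and the latter scored low for its width.

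**Figure D3:**
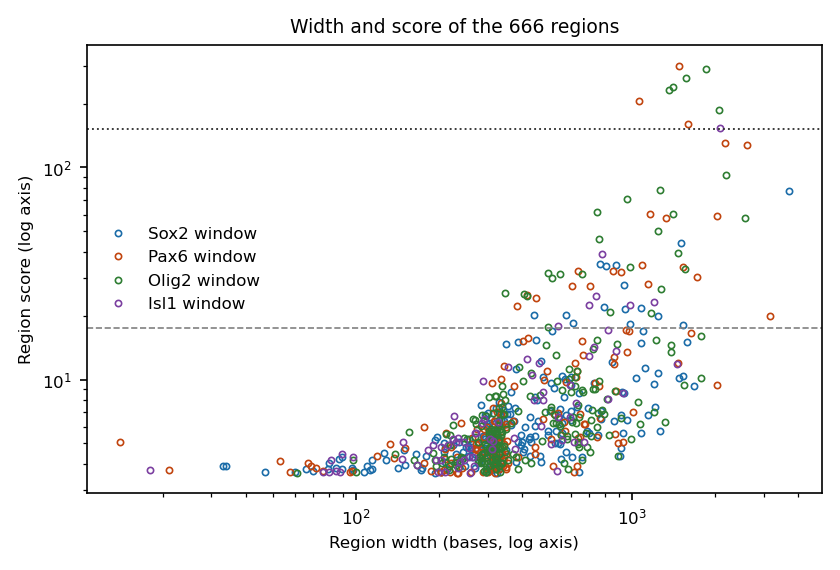
Width in bases (horizontal log axis) and score (vertical log axis) of the 666 regions, coloured by window, with dashed and dotted lines at the 90th and 99th percentile of all regions. The 9 regions above the dotted line are all wider than 1000 bases, and the widest, 3694 bases in the Sox2 window, lies below it.

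The edges of the windows cut through regions at Olig2 only. There chr16:90899830-90900256 (score 8.37) and chr16:91549995-91550265 (6.48) crossed the lower and the higher edge. Just beyond the higher edge, chr16:91551251-91551911 scored 57.5 and was no member. The regions just outside the other edges scored between 3.81 and 7.98, and those just inside between 4.57 and 18.2.

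Genes that neighbour the 4 loci were expressed at a share near that of all genes. The 6 nearest genes on each side in the gene order of RefSeq's GRCm38.p6 annotation that are in the expression table were taken, and which of them lie inside the mm9 windows was not determined. Of these 48 genes, 27 (56.25%) reached 1 FPKM in each of the 3 replicates, against 50.7% of all 24002 genes. By locus they were 7 of 12 for Sox2, 6 for Pax6, 8 for Olig2 and 6 for Isl1. Of the 32 protein-coding neighbours 25 reached the threshold, and of the 16 others 2. The shares of all protein-coding and all other genes were not computed, so this split has no background.

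Around Sox2 the noncoding Sox2ot was expressed, at 11.5, 10.1 and 11.1 FPKM (10.9 ± 0.705, SD, n = 3). Sox2 lies within Sox2ot, and how reads over the shared DNA were assigned is not given, so the 2 values may not be separate. The nearest protein-coding neighbours stood at 20.4 ± 1.97 (Dnajc19), 39.7 ± 1.54 (Fxr1, an RNA-binding protein gene) and 11.3 ± 0.304 (Atp11b, a lipid flippase gene). Sox2 exceeded every one of its 12 neighbours in each replicate.

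Around Pax6 the order was different. Rcn1 (26.2 ± 0.510 FPKM, SD, n = 3), Immp1l (20.3 ± 1.54), a mitochondrial peptidase gene, and Mpped2 (20.4 ± 0.468) exceeded Pax6, while Elp4, an Elongator subunit gene known to hold enhancers of Pax6, stood at 4.16 ± 0.206. The noncoding Paupar and Pax6os1 were near 0, at 0.0556 ± 0.00735 and 0.0941 ± 0.0627. Wt1, a kidney and gonad factor, stood at 0.288 ± 0.0849. Dnajc24 (6.51 ± 0.690) and Arl14ep (9.45 ± 0.561) lay between these and Pax6, so its neighbours ranged from near 0 to above its own level.

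Olig1, the basic helix-loop-helix gene next to Olig2, stood at 19.1, 20.6 and 19.2 FPKM (19.6 ± 0.836, SD, n = 3), below Olig2 in every replicate. Further genes on that side were the interferon receptor genes Ifnar2 (11.9 ± 1.20) and Ifnar1 (12.1 ± 0.169) and the interleukin receptor gene Il10rb (3.28 ± 0.629). On the other side Paxbp1 stood at 15.3 ± 0.795 and Synj1, a gene of synaptic vesicle recycling, at 10.5 ± 0.330. Both sides of Olig2 therefore held expressed genes, and no neighbour exceeded it. Around Isl1 the nearest genes in order were Pelo (16.3 ± 0.675), a ribosome rescue factor gene, and Parp8 (5.30 ± 0.322). The integrin genes Itga1 (0.167 ± 0.0309) and Itga2 (0.210 ± 0.0325) were low, and Mocs2 (21.9 ± 0.156) and Mrps30 (19.9 ± 1.44) exceeded Isl1.

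**Figure D4:**
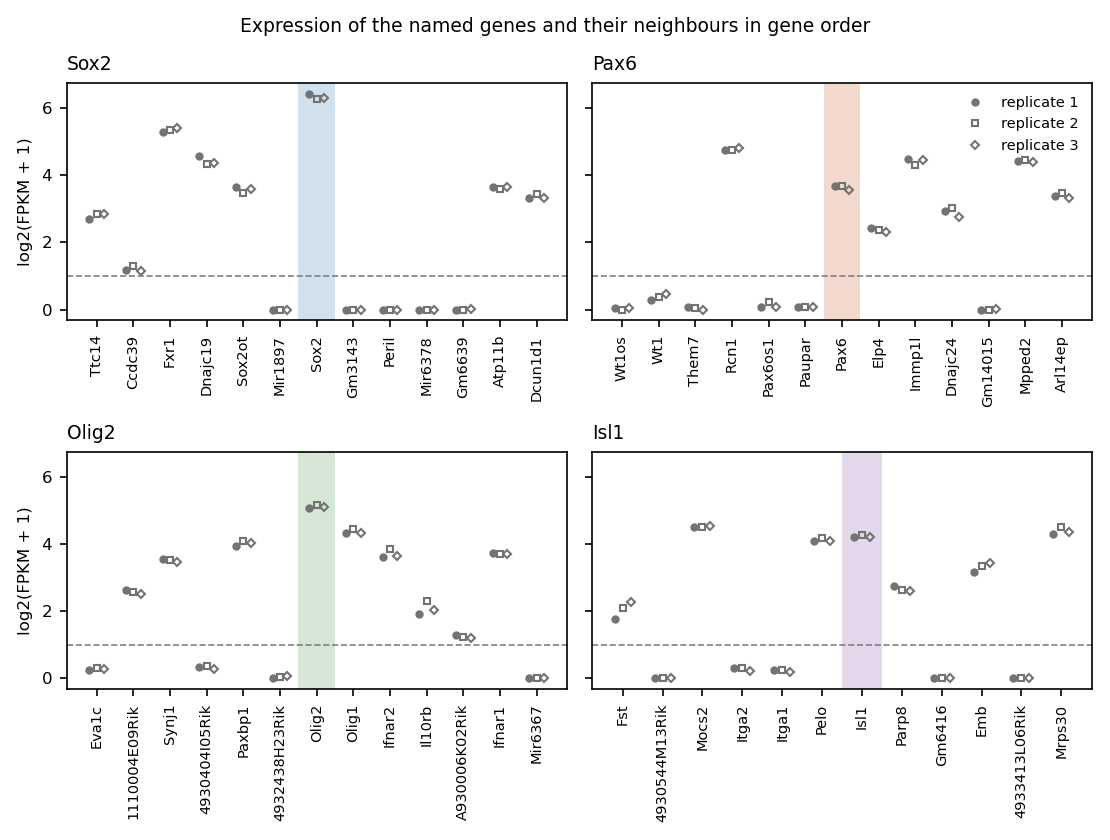
Expression as log2(FPKM + 1) in the 3 RNA-seq replicates (symbols) of each locus gene (shaded) and its neighbours, ordered along the chromosome, with 1 neighbour of Isl1 not shown. The dashed line marks 1 FPKM. Sox2 and Olig2 are the highest genes of their panels, whereas Rcn1, Immp1l and Mpped2 lie above Pax6.

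Relatives of the 4 factors were expressed to different extents. All 5 SoxB genes measured reached 1 FPKM in each replicate, a share to be read against 50.7% of all genes, with Sox3 at 41.9 ± 0.505 and Sox21 at 41.7 ± 1.38 (SD, n = 3). Of 9 Pax genes, 4 did, led by Pax2 (17.9 ± 1.60), and Pax1 was listed at 0 in every replicate. Of 3 Olig genes, Olig3 (1.25, 1.09 and 0.988) missed the threshold in replicate 3. Of 12 LIM homeobox genes, 6 reached it, led by Lhx3 (47.6 ± 1.68), the motor neuron partner of Isl1, and Lhx1 (26.7 ± 1.89). Lhx9, at 0.00694 ± 0.0120, was lowest.

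Markers of the neural cells that use these genes were expressed, and markers of the heart stayed below the threshold. All 6 motor neuron markers, Isl1 among them, and all 6 neural progenitor markers, Sox2 and Pax6 among them, reached 1 FPKM in every replicate. Of all genes, 50.7% did. None of the 5 heart markers did, with means between 0.0732 and 0.438 FPKM. Of 5 oligodendrocyte lineage markers 4 did, with Cspg4 at 0.142 ± 0.0335 (SD, n = 3). All 6 extraembryonic endoderm markers did as well, with means from 7.09 to 269 FPKM, and each was lowest in replicate 1. The share of all genes lowest in that replicate was not computed, so this pattern has no background. In bulk samples the number of cells of a type and the signal per cell cannot be told apart, and which cells carried a region was not tested.

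Set side by side, RNA level and score at the midpoint ordered the loci differently. Sox2, with 79.5 FPKM, had 77.7 at the region over its midpoint, Olig2, with 33.5 FPKM, had 78.5, and Isl1, with 17.6 FPKM, had 154. Pax6, with 11.5 FPKM, had 19.9 at the region nearest its midpoint and 130 at 10.1 kb from it. With 4 loci no correlation was computed. Where each gene lies relative to the midpoint of its window was not determined, so these scores cannot be assigned to the genes. Isl1, below Sox2 and Olig2 in RNA, had the highest score at the midpoint, and Sox2, highest in RNA, had the lowest maximum of the 4 windows.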

How the data were processed

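Titles assigned 3 samples to RNA-seq and 3 to ATAC-seq. The submitters' processing notes list Bowtie, Cufflinks and mm9. Versions, the region caller, its threshold and any pooling are unknown. The authors deposited 1 list of ATAC-seq regions with a score per region, and coordinates are printed 1-based. The authors deposited expression values read as FPKM, since the notes name Cufflinks and the header names no unit; read depth is unknown for both assays.

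Python 3.11.15, numpy 2.4.6, pandas 2.3.3 and scipy 1.17.1 were used. Any overlap with a window made a region a member. Densities use the span from the first to the last region of each chromosome. Tests were not made, since there is 1 region list and 1 condition. Functions were tested on simulated data. Named regions were, per window, the 5 highest scores, the 3 widest, the lowest, the nearest to the midpoint, those crossing an edge and runs of 5 strong regions; others that are printed were chosen after their values were seen. Named genes were the 4 loci, their neighbours, fixed families and markers, of which some are not reported here. The members and lists were chosen with earlier results of these data known. Alternatives were other overlap rules, merging, score thresholds, window sizes, FPKM thresholds, pseudocounts and left-out replicates.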

Additional observations from a re-analysis of the deposited data

How the results depend on the processing

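Of the alternative values, 92 counted as stable and 14 moved. Stable means within 1.5 times for counts, density ratios and shares of summed score, within 1 SD for FPKM and within the 95% interval for median scores and shares of regions, where a share at another percentile was first scaled to a background of 10%. At the 75th percentile Isl1 held 31.1% against 25% of all regions. At the 99th it held 1.35%, which is 1 region, against 1.00%, so it changed sides at both. With each window shortened to its central part, equal in length to what was left out, counts were 109 in Sox2, 83 in Pax6, 107 in Olig2 and 42 in Isl1, and counts of regions at or above the median score were 108, 85, 131 and 35; both settings admit fewer regions by construction. At the 99th percentile the share was 0 in Sox2 and 2.27% in Olig2. The share of summed score was 8.36% (Sox2), 5.30% (Pax6) and 4.27% (Olig2) in the central 20 kb and 13.7% in the central 100 kb of Olig2. Density ratios kept their side of 1 in all windows under the 4 alternatives run, including the autosomes alone, which was added after seeing the data. With score per base of width, the share of strong regions fell below 10.0% in Olig2 and rose above it in Isl1, and the cause was not tested. Merging within 100 bases changed no count, since the smallest gap was 151 bases. Read depth behind the scores is unknown. No paired analysis was possible because the RNA-seq and ATAC-seq samples share only numbers and the regions carry no per-sample values.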

Other observations

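No pair of neighbouring regions in the whole list lay closer than 151 bases, and the smallest gap inside the windows was 152 bases, in Sox2. Scores recurred, with 131209 distinct values among 495233 regions. Some regions shared their score with another region of their window. They numbered 81 of 211 in Sox2, 39 of 161 in Pax6, 60 of 220 in Olig2 and 14 of 74 in Isl1. A window with more regions gives more room for such matches. Chromosome X held 3131 regions, 1.92 per 100 kb, against 20.4 on the autosomes.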
